A study of Homo sapiens with 93 samples.

Results

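The guanylate-binding protein (GBP) cluster is a row of related genes on human chromosome 1, and 5 of its genes, GBP1, GBP2, GBP3, GBP4 and GBP5, were followed here through the histone mark H3K36me3. They were taken by Ensembl identifier from a table of 14000 features, and 5 of 5 were present. H3K36me3 (histone H3 trimethylated at lysine 36) was mapped by CUT&Tag, in which an antibody guides a transposase to chromatin and the released DNA is sequenced. The samples were 93 lymphoblastoid cell lines (LCLs), B cells made immortal with Epstein-Barr virus, with 1 library per line. They form 1 group, no treatment or genotype is labelled, and the lines were grown with 20% serum in 4 batches of roughly 20 to 35, without a label for the batch of each line. Differences between libraries therefore hold line, culture and technical differences together, and p-values treat these libraries as the units.

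GBPs are large GTPases made by many cell types after exposure to interferons, above all interferon gamma. In human cells GBP1 binds lipopolysaccharide on bacteria that have entered the cytosol, and GBP2, GBP3 and GBP4 join it in a coat on which caspase-4, a sensor that starts inflammatory cell death, is activated. GBP1, GBP2 and GBP5 end in a signal for attachment of a lipid anchor, and GBP2 and GBP5 are also known to hold back the protease furin and so the processing of viral envelope proteins. H3K36me3 is laid down by SETD2 travelling with elongating RNA polymerase II, so the mark covers the bodies of transcribed genes.

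The 5 genes occupied consecutive rows of the table, in the same order as on the chromosome. By RefSeq positions for GRCh38.p14, GBP3 (ENSG00000117226.12) lies at chr1:89006680-89022866, GBP1 (ENSG00000117228.10) at chr1:89052319-89065208, GBP2 (ENSG00000162645.13) at chr1:89106132-89126114, GBP4 (ENSG00000162654.9) at chr1:89181144-89198942 and GBP5 (ENSG00000154451.14) at chr1:89256189-89272860. The annotated spans run from 12.9 kb for GBP1 to 20.0 kb for GBP2, and the gaps widen along the row, 29.5 kb from GBP3 to GBP1, 40.9 kb from GBP1 to GBP2, 55.03 kb from GBP2 to GBP4 and 57.2 kb from GBP4 to GBP5. RefSeq places GBP7 in the gap between GBP2 and GBP4, where the table has no row. It places GBP6 beyond GBP5, at chr1:89364059-89388160. Whether a row after GBP5 belongs to GBP6 could not be read, because identifiers of other rows were not matched to names. Counts are taken to come from the annotated gene, although the sources used here do not state the interval that was counted. GBP1 and GBP3 are close relatives in sequence, and whether reads were shared between the family members was not tested.

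RefSeq start regions, here 250 bases before and 50 after the annotated start, were held for 3 of the 5 genes, GBP1, GBP3 and GBP4. Whether these regions bear on how the genes varied across lines, described further on, was not tested. The 250 bases before the start are printed 5′ to 3′ on the minus strand for GBP1 (chr1:89065209-89065458), with a motif match in capitals.
GBP1: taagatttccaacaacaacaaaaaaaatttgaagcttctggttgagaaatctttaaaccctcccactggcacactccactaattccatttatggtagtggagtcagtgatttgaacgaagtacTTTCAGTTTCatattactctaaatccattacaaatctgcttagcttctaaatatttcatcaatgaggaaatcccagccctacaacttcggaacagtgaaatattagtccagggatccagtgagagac
The capitals in GBP1 mark a match, read on the opposite strand, to the core of the interferon-stimulated response element, that is GAAA, then 2 bases of any kind, then GAAA. Both strands were searched. A match to the response element core was found in each of the 3 start regions, against 3.57% of 35116 start regions of the same length. The genes and the motif were chosen with earlier results of these data known, so this comparison is a description without a test. The matches, with 10 bases on each side and on the minus strand, were as follows.
GBP1, chr1:89065316-89065345: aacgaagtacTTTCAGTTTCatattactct
GBP3, chr1:89022845-89022874: aaagaagtacTTTCAGTTTCattaggctct
GBP4, chr1:89198927-89198956: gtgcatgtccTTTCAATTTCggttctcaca
Counted from the annotated start as position 1, with no position 0, the GBP1 match ends at position -118, the GBP3 match begins at position 3, and the GBP4 match runs from -4 to 6, across the start. The GBP1 and GBP3 cores have the same letters. The start regions of GBP3 and GBP1 also aligned with each other over 160 columns, of which 76.2% were identical, whereas the best local alignment of GBP4 with either covered at most 14 columns. The GBP3 and GBP1 matches lie within the parts that aligned, so these matches are not independent of each other. A match is a description of letters and was not tested for binding.

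Library totals ran from 2842955 to 24325746 counts, with a median of 14883653. Every one of the 5 genes was counted in every library, with a lowest count of 18 (GBP5) and a highest of 1025 (GBP2), so each passed the filter of 10 counts in 47 libraries, as did 13915 features. Counting error alone would give a coefficient of variation of 0.0487 for GBP2 and 0.0860 for GBP5 in the average library, and reads copied by PCR make these figures approximate. Values below are CPM, counts scaled to the library total, after TMM scaling, which corrects library totals for composition.

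H3K36me3 was counted over all 5 genes in all lines, with medians over lines below the 42.5 CPM of the median feature. GBP2 had the most, with a lowest value of 22.98, a median of 38.1 and a highest of 60.98 CPM over 93 lines. GBP3 had 10.52, 25.3 and 43.1 CPM in the same order, and GBP1 had 6.21, 21.5 and 40.2 CPM. The lowest GBP1 value stood apart, since the 5th percentile of the lines was 12.4 CPM. GBP4 had 7.50, 17.02 and 39.003 CPM, and GBP5 had 5.34, 12.6 and 36.3 CPM. By mean log2 CPM, GBP2 lay at the 46.95th percentile of all features, GBP3 at the 34.6th, GBP1 at the 29.4th, GBP4 at the 24.2nd and GBP5 at the 19.1st. The comparisons with other features are per feature, without scaling for length. Values per kb were not computed for other features, so these percentiles do not rank the density of the mark. The ranges of the 5 genes overlapped, and the highest line for GBP5 exceeded the lowest line for GBP2.

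**Figure D1:**
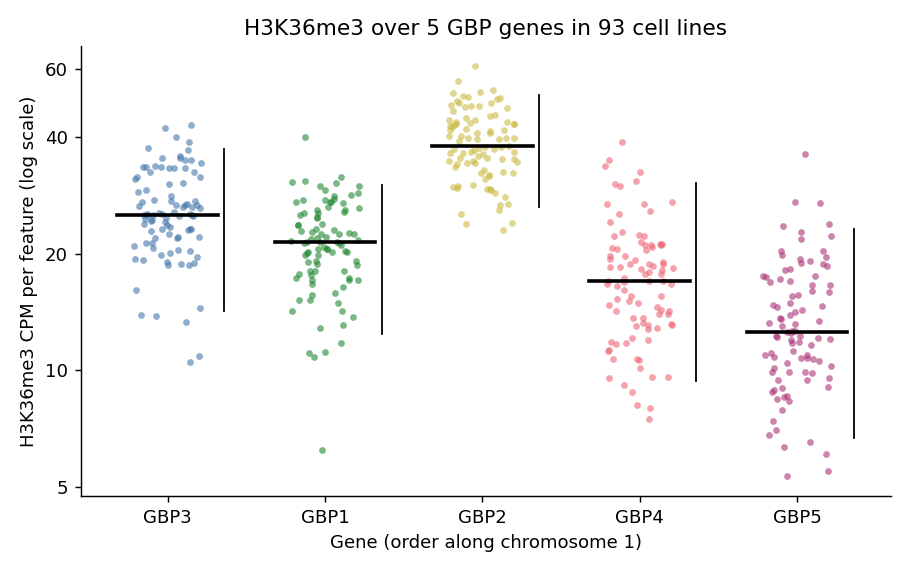
H3K36me3 in CPM per feature (log axis) for the 5 GBP genes, in their order along chromosome 1; each point is 1 of 93 lines, thick bars are medians and thin bars run from the 5th to the 95th percentile of lines. GBP2 has the highest median, 38.1 CPM, and GBP5 the lowest, 12.6 CPM, with the widest relative spread in GBP4 and GBP5.

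Divided by the annotated gene span, the medians were 1.91 CPM per kb for GBP2, 1.67 for GBP1, 1.56 for GBP3, 0.956 for GBP4 and 0.754 for GBP5. The 3 genes at the GBP3 end thus had higher medians per length than GBP4 and GBP5. GBP1 and GBP3 lay closest: on the log2 CPM per kb scale, the difference of GBP1 minus GBP3 was 0.05 ± 0.27 (SD, n = 93), and GBP1 was higher in 55 of 93 lines. The step from GBP3 to GBP4 was the widest, 0.73 ± 0.52 (SD), with GBP3 higher in 87 of 93 lines. The mean difference of GBP2 minus GBP1 was 0.24 ± 0.35 (SD), with GBP2 higher in 71 of 93 lines. For GBP4 minus GBP5 it was 0.28 ± 0.51 (SD), with GBP4 higher in 65 of 93. These SDs describe the spread of single lines, and the mean differences were not tested. GBP2 was the highest per kb in 65 lines and GBP5 the lowest in 65 lines, and 28 of 93 lines showed the whole order.

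The genes also differed in how much they varied between lines. The coefficient of variation of CPM between lines was 0.391 for GBP5, 0.361 for GBP4, 0.261 for both GBP1 and GBP3 and 0.205 for GBP2, against a median of 0.205 over all features tested. The 95th percentile line exceeded the 5th percentile line 3.46-fold for GBP5 and 3.25-fold for GBP4, against 2.62-fold for GBP3, 2.43-fold for GBP1, 1.95-fold for GBP2 and a median of 1.94-fold over all features. The tails had different sides. For GBP5, 15 lines lay above 1.5 times its median and 10 below the median divided by 1.5, and for GBP4 these were 11 and 14 lines. GBP1 had 1 such line above and 10 below, GBP3 had 4 above and 7 below, and GBP2 had 1 above and 4 below.

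Spread beyond that of features with a like count was then tested. After depth and dynamic range had been fitted (the latter being the gap between the median log2 CPM of the highest and the lowest 20% of features by level), 4 of the 5 genes were called variable between lines by edgeR's goodness-of-fit test with Benjamini-Hochberg adjustment over 13915 features, of which 18.4% were called. Among features with a mean level within the range of the 5 genes, 17.5% were called. The dispersion of GBP5 was 3.90 times that of the trend (adjusted p = 2.42e-24), that of GBP4 3.51 times (adjusted p = 9.45e-21), that of GBP3 2.32 times (adjusted p = 7.53e-09) and that of GBP1 2.30 times (adjusted p = 1.87e-08). GBP2 did not pass, at 1.33 times the trend (adjusted p = 0.121), but it passed with 10 principal components as further covariates (adjusted p = 4.83e-05). By this ratio GBP5 and GBP4 lay at the 97.2nd and 96.4th percentiles of all features, GBP3 and GBP1 at the 91.9th and 91.7th, and GBP2 at the 79.6th. The coefficient of variation of CPM, with no covariates, placed them lower. By it GBP5 and GBP4 lay at the 95.9th and 94.0th percentiles, GBP3 and GBP1 at the 72.6th and 72.7th, and GBP2 at the 49.7th. The dispersion ratios were lower without depth and dynamic range as covariates, where the goodness-of-fit test called 3159 features. GBP5 was then at 2.48 times the trend, GBP4 at 2.30, GBP3 at 1.47 (adjusted p = 0.0156) and GBP1 at 1.46 (adjusted p = 0.0193). DESeq2's stricter outlier criterion called 0 of the 5, and 269 features in the whole table.

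Depth and dynamic range, both computed for each library from its counts, accounted for little of the variation of these genes. Whether dynamic range is technical or differs between lines was not tested. Together they accounted for 0.111% of the variance of log2 CPM of GBP5, 2.09% for GBP1, 2.33% for GBP3, 3.47% for GBP4 and 12.8% for GBP2, against a median of 36.2% over all features tested. Of the 5 genes, 1 changed with log2 library total in limma's fit, GBP2, by -0.13 ± 0.04 log2 CPM per doubling (SE, adjusted p = 0.00295), where 65.6% of features were called. For dynamic range 0 of the 5 were called by limma, and 0 passed an unadjusted 0.05, with adjusted p from 0.347 to 0.902, where 80.2% of features were called. Among features of a like level the shares called were 67.2% for library total and 78.5% for dynamic range.

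H3K36me3 of the 5 genes rose and fell together across lines. Pearson correlations of residual log2 CPM, after depth and dynamic range, averaged 0.539 over the 10 pairs and ran from 0.355 to 0.769. To place each pair against the whole table, limma was fitted across all features with 1 GBP gene's level as the covariate, and a pair counted as called where it passed in both directions. All 10 pairs passed, with the larger of the adjusted p values at most 0.0485. Features rising with the covariate made up 4.20% of those tested for GBP3, 0.144% for GBP1, 0.0503% for GBP2, 0.503% for GBP4 and 5.05% for GBP5.

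The closest pair was GBP3 and GBP1, neighbours on the chromosome, with r = 0.769 and rho = 0.706 (p = 1e-05 for each, permutation test, the smallest 100000 resamples can give; adjusted p = 2.19e-15 in limma). Without the 2 lines farthest from the GBP3 median r was 0.742. The next was GBP3 and GBP5, the outermost genes of the row, whose annotated starts lie 249.5 kb apart, with r = 0.669 and rho = 0.642 (p = 1e-05 for each, permutation test; adjusted p = 2.12e-09 in limma; r = 0.626 without 2 lines). Distance on the chromosome thus did not order the pairs. GBP3 and GBP4 were the least alike, with r = 0.355 (p = 0.00039) and rho = 0.401 (p = 9e-05, permutation tests; adjusted p = 0.0485 in limma; r = 0.387 without 2 lines), and this pair missed the threshold under 5 of 13 alternatives. The other 7 pairs had r from 0.455 to 0.565 and rho from 0.440 to 0.548, with permutation p of at most 2e-05 for each. Of these 7, GBP1 and GBP4 missed limma's threshold under 4 of 13 alternatives, GBP3 and GBP2 and also GBP1 and GBP5 under 2, and the other 4 pairs under 1. Correlations were higher in the 47 deeper libraries, where the mean over the 10 pairs was 0.624, than in the 46 shallower ones, where it was 0.482, and the difference was not tested. GBP3 and GBP1 had r = 0.825 and 0.731 in these classes, GBP3 and GBP5 0.810 and 0.571, and GBP3 and GBP4 0.464 and 0.283.

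**Figure D2:**
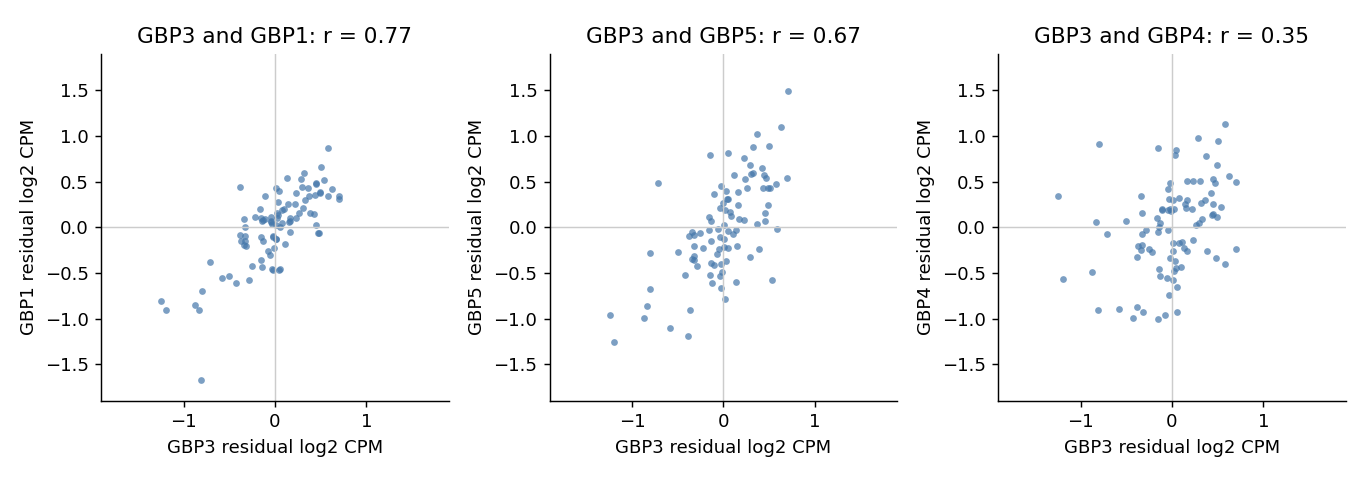
Residual log2 CPM (after depth and dynamic range) of GBP3 on the horizontal axis against GBP1, GBP5 and GBP4 on the vertical axes; each point is 1 of 93 lines. GBP1 follows GBP3 most closely (r = 0.769), and GBP4 least (r = 0.355).

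Several lines with low GBP3 were also low in GBP1 and GBP5. Leaving out the 10 lines farthest from the median of the first gene, a choice made after the points had been seen, GBP3 and GBP1 had r = 0.635 and GBP3 and GBP5 r = 0.566, both still called, while 3 of the 10 pairs were not. These were GBP1 and GBP5 (r = 0.336, adjusted p = 0.637), GBP3 and GBP2 (r = 0.372, adjusted p = 0.163) and GBP1 and GBP4 (r = 0.443, adjusted p = 0.104, limma). Leaving out lines in this way narrows the range of the first gene, which can lower r by itself. A lower r here therefore does not show that the pair depended on those lines.

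A single shared component held 63.4% of the variance of the 5 standardised residual profiles, with weights from 0.386 (GBP4) to 0.476 (GBP1) that all had the same sign. The next held 14.5% and set GBP4 (0.755) against GBP3 (-0.514) and GBP1 (-0.341). With the other 3 genes held constant, the highest values were those of GBP3 with GBP1 (partial r = 0.648), GBP3 with GBP5 (0.5002) and GBP4 with GBP5 (0.367). GBP1 with GBP2 (0.264), GBP1 with GBP4 (0.242), GBP2 with GBP4 (0.210) and GBP2 with GBP5 (0.200) were lower, and GBP1 with GBP5 was at -0.143. The partial correlation of GBP3 with GBP2 was 0.00354 and that of GBP3 with GBP4 was -0.207. These partial correlations are given as a description of 93 lines, without a test.

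**Figure D3:**
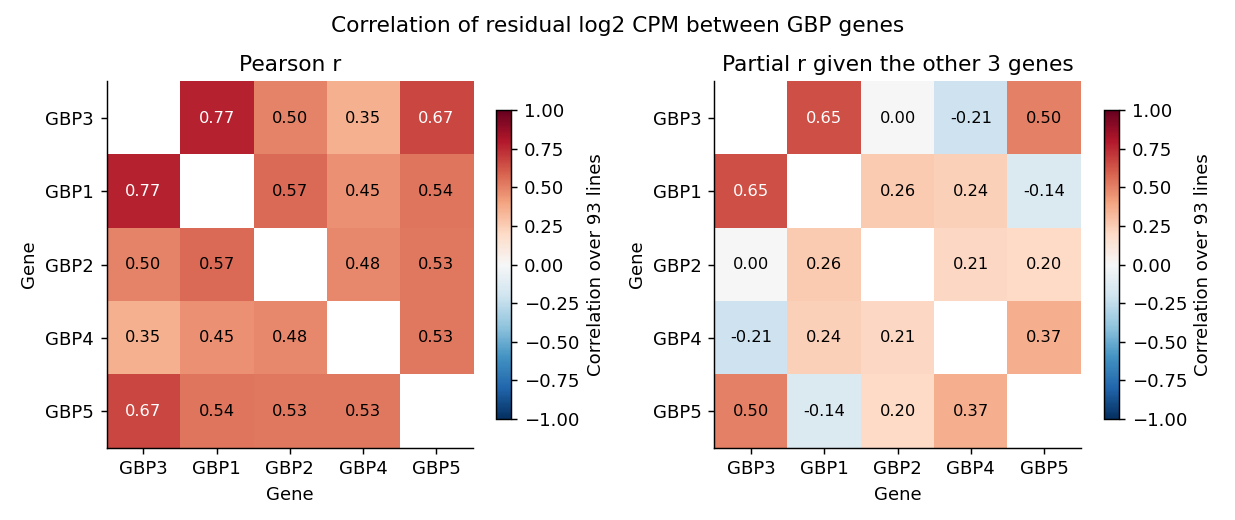
Correlations of residual log2 CPM over 93 lines between the 5 GBP genes, in chromosome order: Pearson r on the left and partial r, given the other 3 genes, on the right. All 10 Pearson values are positive (0.355 to 0.769), and the largest partial values join GBP3 with GBP1 (0.648) and GBP5 (0.5002).

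Neighbouring rows of the table are correlated in general, so the GBP values were set beside those of all rows at the same distance. The pair GBP3 and GBP1 stood at the 94.5th percentile of 13847 adjacent pairs, whose median r was 0.265. GBP3 and GBP5, 4 rows apart, stood at the 97.1st percentile of pairs at that distance, whose median was 0.110. GBP2 and GBP4, at the 75.7th percentile, stood lowest of the 10. Over all windows of 5 adjacent rows, the mean over the 10 pairs had a median of 0.169, and the GBP window, at 0.539, stood at the 94.5th percentile, with 753 of 13682 windows higher. A stretch after row 1900 up to row 3200 holds a fall in counts whose position is not the same in every library. The GBP rows lie outside it, and among the 12420 windows that start outside it the GBP window stood at the 98.1st percentile. Leaving this stretch out was a choice made after the data had been seen. Over all windows, the GBP window stood at the 96.4th percentile with 10 principal components also removed. By the deposited scores it stood at the 93.7th, with 858 windows higher. Adjacent windows share rows, and these places are descriptions.

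**Figure D4:**
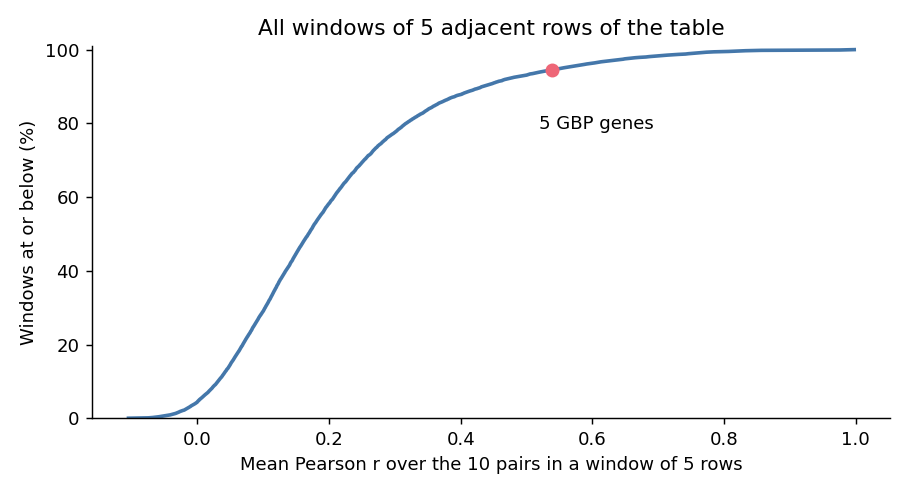
Share of all 13682 windows of 5 adjacent table rows (vertical axis, %) whose mean Pearson r over their 10 pairs is at or below the value on the horizontal axis. The GBP window (red point) has a mean r of 0.539 and stands at the 94.5th percentile.

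Among adjacent rows of the table, the co-variation fell off near the edges of the 5 genes. Each GBP gene had a mean r with the other 4 between 0.456 (GBP4) and 0.581 (GBP1). Of the 20 rows within 10 rows on each side, 19 passed the filter, and their mean r with the 5 genes ran from -0.237 to 0.345, with an average of 0.0159. The highest belonged to the row 2 before GBP3, the only 1 of the 19 that was called with the mean of the 5 genes (r = 0.435, adjusted p = 0.00439, limma). The row just before GBP3 had a mean r of 0.198 and the row just after GBP5 one of 0.163. With the mean level of the rows 6 to 55 away on each side as a further covariate, the mean r over the 10 pairs was 0.533, against 0.539 without it. The co-variation was not confined to the cluster. Among 13871 features more than 20 rows away, the highest r was 0.676 with GBP3, 0.633 with GBP5, 0.517 with GBP4, 0.496 with GBP1 and 0.430 with GBP2. These are extremes picked from many features, but they lie within or near the range of r between the GBP genes.

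**Figure D5:**
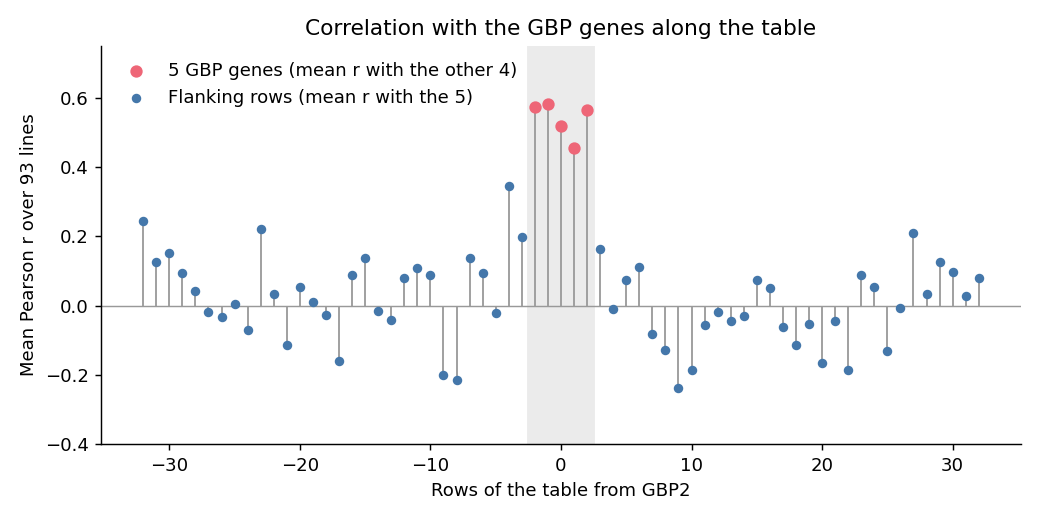
Mean Pearson r over 93 lines with the GBP genes (vertical axis) for each table row up to 30 rows from the cluster (horizontal axis, rows from GBP2); red points are the 5 GBP genes, each against the other 4, and blue points are flanking rows against all 5. The GBP genes lie between 0.456 and 0.581, and no row within 10 rows of them exceeds 0.345.

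Over the rest of the table the number of features called differed between the genes, and it depended on the covariates. Of 13914 other features, 9.89% were called with GBP5 and 9.26% with GBP3 by limma, against 0.891% with GBP4, 0.187% with GBP1 and 0.0791% with GBP2. Without depth and dynamic range as covariates the order was another, with 1647 features called with GBP2, 810 with GBP3 and 630 with GBP5. With these covariates GBP2 had 11. The counts also fell with library-wide components removed. With 5 principal components as further covariates, 21 features were called with GBP5 and 25 with GBP3, against 1376 and 1289 without them. The 5 components with depth and dynamic range accounted for 42.2% of the variance of GBP5 and 41.7% of that of GBP3, but 13.1% of that of GBP1, against a median of 59.5% over all features. The difference between the genes in the number of features called was not tested.

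With the mean of the 5 genes, 1.62% of 13910 other features rose and 1.54% fell (226 and 214 features, limma), and 439 of these 440 lay more than 20 rows from the cluster. In the 46 shallower libraries 12 features were called, in the 47 deeper ones 428, and with 10 principal components as further covariates 7. The most alike was ENSG00000107201.10, with r = 0.599 and rho = 0.586 (r = 0.599 without 2 lines). It had 39.4, 70.4 and 124.2 CPM as its lowest, median and highest value, and it rose by 0.18 log2 CPM for each SD of the GBP mean (adjusted p = 2.64e-06, limma). Its correlation was 0.619 with GBP5 and 0.608 with GBP3, but 0.288 with GBP2. ENSG00000072858.10 followed, with r = 0.596 and rho = 0.549 (r = 0.523 without 2 lines). The features that ran most against the GBP genes were ENSG00000188191.15 (r = -0.541, rho = -0.543) and ENSG00000130309.11 (r = -0.523, rho = -0.516), with r = -0.544 and -0.530 without 2 lines. All 4 kept their sign in the shallower and the deeper libraries, where the first had r = 0.625 and 0.565. The files and the reference pair none of these identifiers with a gene name. They were picked as extremes, so their correlations are a description over 93 libraries and say nothing of shared function.

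The deposited normal scores followed CPM closely for each of the 5 genes. Per gene, the Spearman correlation between score and log2 CPM over 93 lines lay between 0.984 (GBP5) and 0.989 (GBP1). Lowest and highest scores were -2.36 and 2.45 for GBP5, -2.82 and 2.25 for GBP4, -2.72 and 1.93 for GBP2, -2.78 and 1.73 for GBP3 and -3.68 and 2.04 for GBP1. The scores of GBP1, GBP2, GBP3 and GBP4 thus reached further down than up, and those of GBP5 slightly further up. Between scores, GBP3 and GBP1 had r = 0.747, GBP3 and GBP5 r = 0.651 and GBP3 and GBP4 r = 0.351. With depth and dynamic range fitted to the scores, 8 of 10 pairs were called, and GBP3 with GBP4 (adjusted p = 0.0746) and GBP1 with GBP4 (adjusted p = 0.0550, limma) were not.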

How the data were processed

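H3K36me3 CUT&Tag was measured in 93 lymphoblastoid cell lines, 100000 frozen cells per assay and 14 PCR cycles, per the labels' protocols. The authors deposited whole-number read counts per feature and, in a second table, normal scores of the same features whose derivation the sources used here do not state. HISAT2 2.2.1, bedtools and hg38 are named in the submitters' processing notes, without role or order. The GBP genes and the motif were chosen with earlier results of these data known. They are described in full, with rows within 10 of them and the features, more than 20 rows away, most and least like their mean.

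Counts were scaled with TMM (edgeR 4.0.16, factors 0.916 to 1.05) and expressed as log2 CPM with a prior count of 2. Fits ran over 13915 features, adjusting for log2 library total and for dynamic range, with Benjamini-Hochberg adjustment over all features and a threshold of 0.05: edgeR goodness-of-fit against the trended dispersion, and limma 3.58.1 (trend) for co-variation. Depth classes were the 46 shallower and 47 deeper libraries. The scripts were also run on simulated data, and the outcome is not given here. No identifier (0 of 14000) could be matched to a symbol through the reference, so the marker and pathway lists, which are written by symbol, and the check of the cell type label were not used. Sequences and positions are RefSeq's, GRCh38.p14. Local alignment used match 2, mismatch -3, gap opening -5 and gap extension -2 (Biopython 1.88). Another motif that was searched is not reported here. Alternatives are given in the closing section. Analyses ran in R 4.3.3, with DESeq2 1.42.0 as an alternative, and in Python 3.11.15.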

Additional observations from a re-analysis of the deposited data

How the results depend on the processing

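The lines left out by distance from the median, the table without the rows after 1900 up to 3200, and the alternatives for features like the GBP genes were chosen after seeing the data. Variability was called in 4 of 5 genes with TMM, DESeq2 or upper-quartile scaling, no filter, the intercept only, and without the 10 shallowest libraries or in the 46 shallower ones, in 5 of 5 with 5 or 10 principal components, flanking rows as covariate, the 47 deeper libraries or without the rows after 1900 up to 3200, and in 0 by DESeq2's dispersion outliers, a stricter criterion. Apart from that criterion, only the call of GBP2 changed. Its log2 dispersion ratio ran from -0.11 (intercept only) to 0.99 (10 components). Features called variable in the whole table numbered 2565 with TMM, 2581 with DESeq2 and 2580 with upper-quartile scaling, 2638 with no filter and 3159 with the intercept only. They numbered 2548 and 2495 with 5 and 10 components, 2521 with flanking rows and 2171 without the rows after 1900 up to 3200. Without the 10 shallowest libraries they numbered 2459, in the shallower libraries 1987, in the deeper 2002, and by DESeq2's outliers 269. All 10 pairs kept a positive r under each alternative. The pairs called were 10 with other scalings, no filter, a prior count of 0.5, the intercept only, without the 10 shallowest libraries and in the deeper ones, 9 with 5 components or flanking rows, 8 with 10 components or deposited scores, 7 without the 10 lines farthest from the median, and 2 in the 46 shallower libraries; the cause was not tested. GBP3 with GBP1 (r from 0.635 to 0.837) and with GBP5 (0.470 to 0.834) were called under each, GBP3 with GBP4 (0.290 to 0.541) failed under 5 of 13, and GBP1 with GBP4 (0.376 to 0.563) under 4. Features called with the GBP mean numbered 440, 416 with the intercept only, 428 in the deeper and 12 in the shallower libraries and 7 with 10 components; the cause was not tested. The change of GBP2 with library total, 1 call among 10 terms, was not called by limma within either depth class (0 calls in each), where its slope was -0.17 (shallower) and -0.20 (deeper) log2 CPM per doubling, against -0.13 in all; at an unadjusted 0.05, 1 of the 5 genes passed for library total in the shallower libraries and 0 in the deeper. The order per kb held in 30.1% of lines and, without length scaling, the same order in 10.8%. The order that the values gave without length scaling (GBP2, GBP3, GBP1, GBP4, GBP5) held in 36 of 93 lines. Pathway list alternatives were not run. No paired analysis was possible because all lines form a single group. Counting error was largest for GBP5, with 18 counts in its lowest library.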
